A study of Homo sapiens with 2 samples.

Results

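Neurotransmitter receptor genes were examined in an EBV-transformed human lymphoblastoid line, a B-cell culture immortalised with Epstein-Barr virus. They are the genes whose annotated symbol begins like those of the GABA-A, glycine, ionotropic and metabotropic glutamate, nicotinic and muscarinic acetylcholine, serotonin, dopamine and adrenergic receptors. This rule, which used symbols and no signals, gave 90 of the 16716 genes measured, read by 155 of the 29493 probe sets with 1 annotated symbol. Of the 90 genes 85 are protein-coding. The other 5 share only the letters of a receptor symbol: the antisense RNAs CHRM3-AS2, GRIK1-AS1, GRIK1-AS2 and GRM8-AS1 and the pseudogene HTR7P1.

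The series holds 1 group, 2 samples of this line grown in serum-containing RPMI1640 medium with no treatment named in the labels, and 1 Affymetrix U133 Plus 2.0 array per sample. The titles write the line as GM06690 and the growth protocol as GM06990. The labels do not say whether the replicates are separate cultures, and their spread may therefore be only technical. With 1 group there is no contrast to test and no p-value. Among the markers of the labelled cell type, 8 of 8 measured B-cell genes lay above background, a level defined below (8.12 for BLK to 14.23 for HLA-DRA on the log2 scale). Of the markers of other blood cells, 0 of 7 T-cell genes and 0 of 6 myeloid genes did, and over all genes 52.1% did. The myeloid gene S100A9 exceeded the level in replicate 2 alone.

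Fast transmission at synapses runs through ligand-gated ion channels, which are assembled from several subunits, each from its own gene. Slower transmission runs through G-protein-coupled receptors, which act alone or as dimers and signal through heterotrimeric G proteins. Both kinds are best known from neurons and muscle, and receptors of several of these families have also been described on lymphocytes. Many neuronal genes are held silent in other cells by REST, a zinc finger repressor that binds the RE1 element and recruits histone deacetylases.

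Signals are given as log2 RMA signals, for replicate 1 and then replicate 2 where both stand, or as mean ± SD of both arrays (n = 2). A gene was read from its brightest probe set. It was called above background when it exceeded, on both arrays, the 95th percentile of 84 genes listed as restricted to other tissues, none of them a receptor gene. That level was 5.70 in replicate 1 and 5.66 in replicate 2 (intensities of 51.9 and 50.4). Probe sets differ in affinity, so a brighter signal does not show a more abundant transcript, and a gene under the level may still be transcribed. In RNA of a whole culture, a weak signal from every cell and a stronger one from few cells cannot be told apart.

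Only a few receptor genes passed the level, and 4 of those lay within 0.5 of it on the log2 scale. Of the 90 receptor genes 7 (7.78%) were above background on both arrays, whereas 52.1% of all genes were (8715 of 16716). These were the nicotinic subunit genes CHRNA5, CHRNB2 and CHRNB1, the kainate receptor gene GRIK5, the GABA receptor genes GABRA4 and GABRR2, and the metabotropic glutamate receptor gene GRM5. A further gene, the serotonin receptor HTR4, exceeded the level in replicate 2 alone, and 82 exceeded it on neither array. Counting genes over the level on at least 1 array gave 8 of 90, against 53.6% of all genes. Of the 84 tissue-restricted genes 5 exceeded the level, which its definition fixes, and of 67 measured olfactory receptor genes 0 did. Among those 5, KRT10 gave 11.24 ± 0.08 and was above the level by all 3 of its probe sets. The list thus holds a gene with a strong signal in this line. By probe set, 7 of 155 (4.52%) were above background on both arrays, whereas 47.6% of all probe sets with 1 symbol were. A 75th percentile in place of the 95th put 19 receptor genes above background (63.4% of all genes), and a 99th put 0 there (39.8% of all genes). That 99th percentile level, 7.45 and 7.56, was pulled up by KRT10 (11.19 and 11.29). The next brightest tissue-restricted gene, SFTPB, gave 6.69 and 6.79, which is under the 7.14 and 7.15 of CHRNA5. A 99th percentile without KRT10 was not tried.

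The median signal of the receptor genes was 4.04, against 6.10 over all genes. The central 80% of the receptor genes ran from 3.55 to 5.28, and that of all genes from 3.70 to 10.73. In the receptor genes 73 of 90 (81.1%) lay more than 1 log2 unit under the mean level, against 36.0% of all genes. More than 1 unit above it lay 1 receptor gene, CHRNA5 (1.11%), against 46.4% of all genes. The median of the tissue-restricted genes was 4.07 and that of the olfactory receptor genes 4.04, so the receptor genes had a median close to those of both sets.

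**Figure D1:**
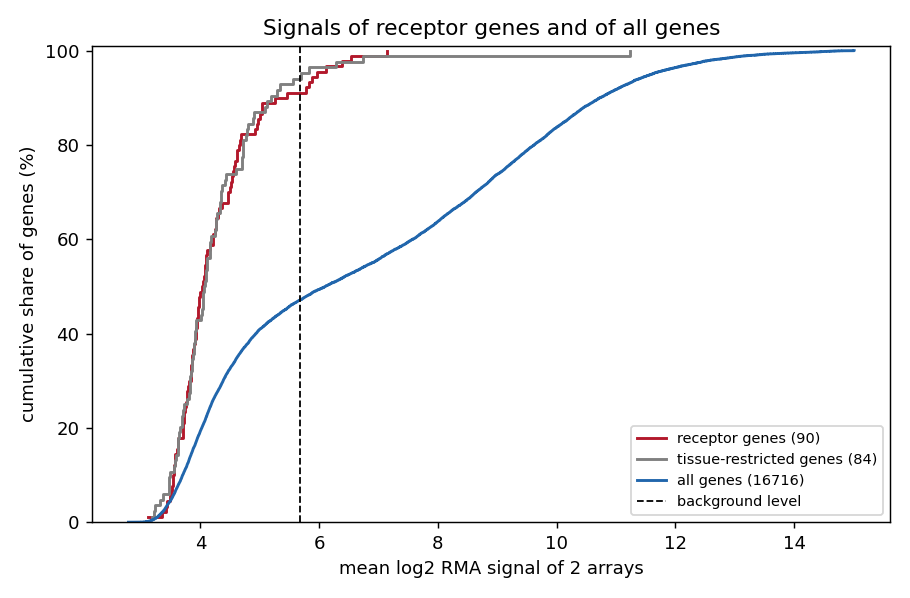
Cumulative share of genes (y axis, %) against the mean log2 RMA signal of 2 arrays (x axis), for the 90 receptor genes (red), the 84 tissue-restricted genes (grey) and all 16716 genes (blue). The red and grey curves run close together, with medians of 4.04 and 4.07, and both lie left of the blue curve with its median of 6.10; the dashed line is the background level.

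By kind of receptor, 6 of 51 genes of ion channel families and 1 of 39 genes of G-protein-coupled families were above background. The share over all genes was 52.1%. These counts include the antisense RNAs and the pseudogene, 2 in the channel families and 3 in the others. The median signal of the channel genes, 4.06, was 0.07 higher than that of the G-protein-coupled receptor genes. The calls came from 4 of 12 families, and in each of the other 8 the brightest member stayed at or under the level on at least 1 array.

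**Figure D2:**
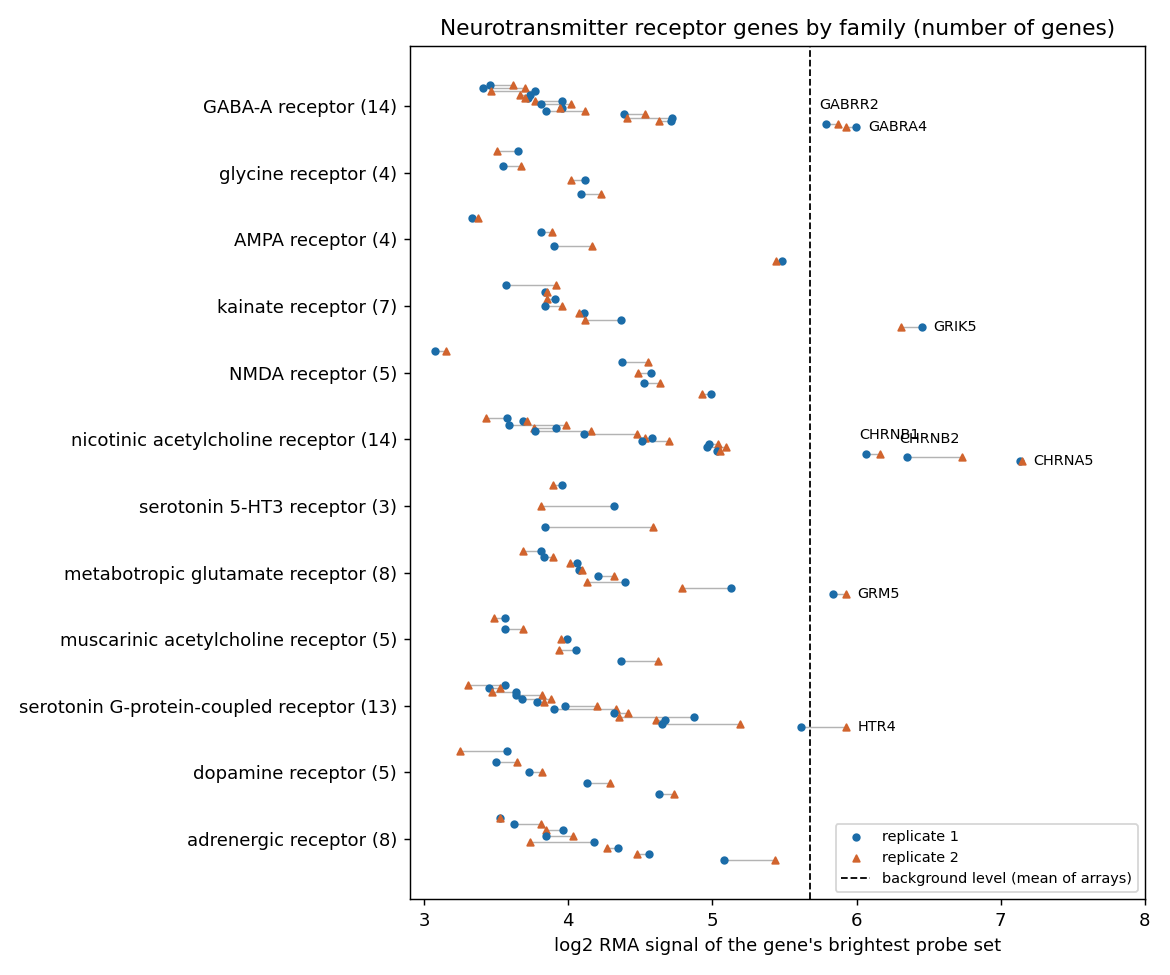
Log2 RMA signal (x axis) of each of the 90 receptor genes in replicate 1 (circles) and replicate 2 (triangles), by family (y axis, number of genes in brackets); a grey line joins the values of 1 gene. The genes named on the plot exceed the background level (dashed, mean of both arrays) on at least 1 array: CHRNA5 stands furthest right at 7.14 and HTR4 straddles the line.

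Nicotinic acetylcholine receptors are channels of 5 subunits. Of 14 measured genes of this family 3 were above background, more than in any other family but a share below the 52.1% of all genes. CHRNA5 encodes an accessory alpha subunit that joins channels built from other alpha and beta subunits. It gave 7.14 and 7.15 (intensities of 141 and 142), 1.47 above the mean level, and the arrays differed by 0.01. CHRNB2, the beta subunit of the commonest nicotinic channels of the brain, gave 6.35 and 6.73 (6.54 ± 0.27). It lay 0.86 above the mean level, so the difference of 0.38 between its arrays was smaller than its margin. CHRNB1, the beta subunit of the muscle channel, gave 6.07 and 6.16 (6.12 ± 0.07). Each of these genes has a single probe set here, so no second probe set bears on the call.

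CHRNB2 and CHRNA5 can sit in 1 channel, but no other measured nicotinic gene was above background, and CHRNA4, the usual alpha partner of CHRNB2 in brain, was not analysed here. CHRNA3, an alpha subunit that can pair with CHRNB2 or CHRNB4 and take up CHRNA5, gave 5.03 and 5.05, the highest mean of the 11 remaining nicotinic genes. Its further probe sets gave means of 4.36 and 4.25. CHRNB4 was the dimmest of the family with 3.57 and 3.43. The other subunits of the muscle channel gave 3.70 ± 0.02 (CHRNA1), 3.96 ± 0.27 (CHRND), 4.29 ± 0.26 (CHRNE) and 4.56 ± 0.04 (CHRNG). All 4 lay at least 1.12 under the mean level, where CHRNB1 lay 0.44 over it.

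The GABA-A family, chloride channels that inhibit neurons, had 2 of 14 genes above background, against 52.1% of all genes. GABRA4, an alpha subunit, gave intensities of 64.0 and 60.7 (5.96 ± 0.05 on the log2 scale), 0.28 above the mean level. GABRR2, a rho subunit known from the retina that can form channels without alpha or beta subunits, gave 5.79 and 5.87 (5.83 ± 0.06), only 0.15 above it. Both have 1 probe set here. The 2 measured beta subunit genes, which alpha subunits need to form a channel, were under the level: GABRB1 with 3.96 and 3.94 and GABRB2 with 4.71 and 4.63. GABRB1 was read by 5 probe sets, of which the brightest is the one given. The 12 genes under the level ran from GABRA2 (3.54 ± 0.11) to GABRB2 (4.67 ± 0.06). The 4 glycine receptor genes, whose products are chloride channels of spinal cord and brainstem, all lay under the level, from GLRA1 (3.58 ± 0.10) to GLRB (4.16 ± 0.10).

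Of the ionotropic glutamate receptors, cation channels that excite neurons, 1 of 16 genes was above background, against 52.1% of all genes. The 16 include the antisense RNAs GRIK1-AS1 and GRIK1-AS2, which encode no channel. GRIK5 encodes a kainate receptor subunit that forms a channel only together with a GRIK1, GRIK2 or GRIK3 subunit. Its brightest probe set, an _x_at set, gave 6.46 and 6.31 (6.38 ± 0.10), but its other probe sets gave means of 4.23 and 3.66 and were not above background. The suffix _x_at marks a set with probes that also match other sequences. GRIK1 (3.90 ± 0.08), GRIK2 (3.88 ± 0.04, the brightest of 6 probe sets) and GRIK3 (4.09 ± 0.03) were all more than 1.5 under the mean level.

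No AMPA or NMDA receptor gene was above background. GRIA3, an AMPA receptor subunit, came closest with 5.49 and 5.44, 0.21 under the mean level, from 1 of 4 probe sets; the other 3 gave means from 3.69 to 4.07. GRIA2, the subunit that makes AMPA channels impermeable to calcium, was the dimmest of that family (3.35 ± 0.03). The 5 NMDA receptor genes ran from GRIN2D (3.11 ± 0.06), the dimmest of all 90 genes, to GRIN2C (4.96 ± 0.04). GRIN1, the subunit that every NMDA channel needs, gave 4.57 and 4.48 by the brightest of 5 probe sets.

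Among metabotropic glutamate receptors 1 of 8 genes was above background, against 52.1% of all genes, the antisense RNA GRM8-AS1 being counted in the 8. GRM5, a receptor coupled to Gq and phospholipase C, gave 5.84 and 5.93 (5.88 ± 0.06) by an _s_at set, whose probes can be shared by several transcripts, 0.21 above the mean level. Its further probe sets gave 3.91 and 3.67 as means. The other genes of this family ran from GRM7 (3.75 ± 0.09) to GRM8 (4.96 ± 0.24).

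The amine receptors and muscarinic receptors had 0 of 34 genes above background on both arrays, against 52.1% of all genes. The non-coding CHRM3-AS2 and HTR7P1 are counted in the 34. HTR4, a serotonin receptor coupled to Gs, gave 5.62 in replicate 1, under that array's level, and 5.93 in replicate 2, over it. The difference of 0.32 exceeded its distance of 0.10 from the mean level, so the arrays do not settle the call. Its further probe sets gave 3.73 and 3.71 as means. The remaining 12 serotonin G-protein-coupled receptor symbols ran from the pseudogene HTR7P1 (3.43 ± 0.18) to HTR1E (4.92 ± 0.38), and the 3 channel-forming serotonin receptor genes from HTR3A (3.93 ± 0.04) to HTR3C (4.21 ± 0.53). Dopamine receptor genes ran from DRD3 (3.41 ± 0.23) to DRD2 (4.68 ± 0.07). Adrenergic receptor genes ran from ADRB1 (3.53, SD under 0.01) to ADRA2B (5.26 ± 0.25). Muscarinic symbols ran from CHRM3-AS2 (3.52 ± 0.05) to CHRM4 (4.50 ± 0.18).

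Probe sets of 1 gene bore on the calls in 36 genes with at least 2 of them. In 34 of these genes no probe set was above background, in 2 genes (GRIK5 and GRM5) 1 of 3 was, and in 0 were all of them. The distance between the brightest and the dimmest probe set was largest in GRIK5 (2.73), GRM5 (2.21), HTR4 (2.06) and GRIA3 (1.77). Over the 36 genes its median was 0.59, against 1.43 over all 7350 genes with at least 2 probe sets. The genes with a single probe set, CHRNA5, CHRNB1, CHRNB2, GABRA4 and GABRR2, were the other 5 calls. In addition, 6 probe sets with several symbols carried a matching one, such as the set shared by CHRNA7 and its partial copy CHRFAM7A (4.46 and 4.35), and 0 of them was above background.

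**Figure D3:**
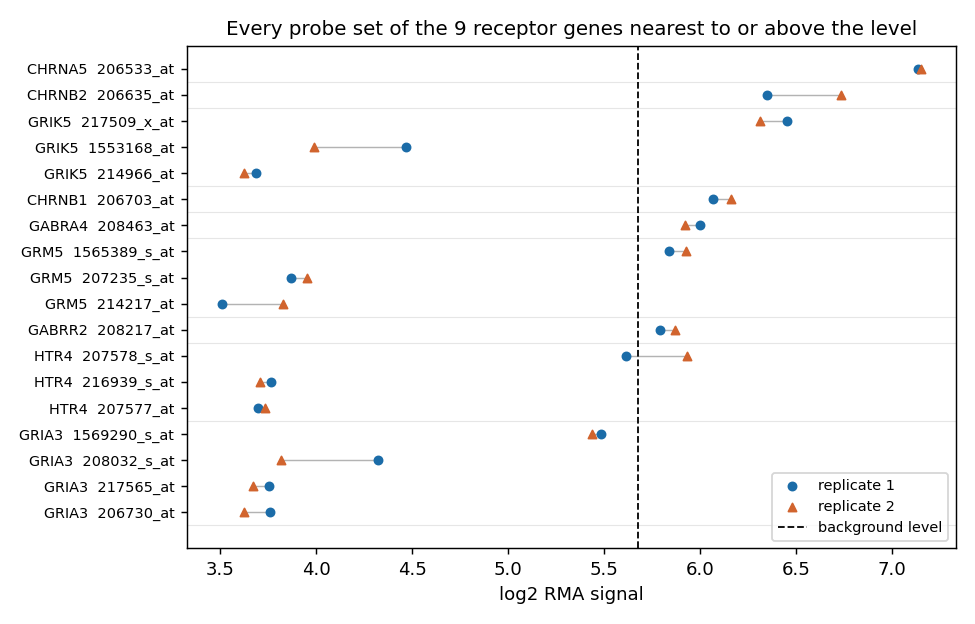
Log2 RMA signal (x axis) of every probe set of the 9 receptor genes with the brightest signals (y axis, symbol and probe set), in replicate 1 (circles) and replicate 2 (triangles). GRIK5, GRM5, HTR4 and GRIA3 each have 1 probe set near or over the background level (dashed) and the others at means of 4.23 or below, and the other 5 genes have 1 probe set each.

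The arrays differed little over the receptor genes. The median absolute difference was 0.12, against 0.10 over all genes, and over genes under the level on both arrays it was 0.13 for receptor genes and 0.14 for all genes. A difference of more than 0.5 was found in 4 of 90 receptor genes (4.44%), against 2.60% of all genes. The 4 were HTR3C (0.75, replicate 2 minus replicate 1), HTR1E (0.54), HTR2A (-0.52) and HTR3B (-0.50). All 4 are serotonin receptor genes whose signals lay under the level on both arrays, and 2 were higher in each replicate.

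Many receptor genes lie side by side in the genome. In the gene order of a RefSeq table (assembly GRCh38.p14), 23 measured receptor genes fell into 11 groups of adjacent protein-coding genes. Of the 23 genes 3 were above background, each alone in its group, against 7.78% of all receptor genes and 52.1% of all genes. With so few calls over groups that are mostly pairs, 1 call in a group is no result about the groups. On chromosome 15, CHRNA5 (7.14) is followed by CHRNA3 (5.04) and CHRNB4 (3.50). The measured genes that flank this group, the proteasome subunit gene PSMA4 (13.04) before CHRNA5 and MORF4L1 (12.84) after CHRNB4, were above background. On chromosome 4, GABRA4 (5.96) stands between GABRA2 (3.54) and GABRB1 (3.95) in the order of measured genes. On chromosome 6, GABRR2 (5.83) stands between GABRR1 (3.70) and the ubiquitin-conjugating enzyme gene UBE2J1 (12.15), and SRSF12 before GABRR1 was not above background (3.63). CHRNB2 on chromosome 1 has UBE2Q1 (11.14) and the RNA-editing enzyme gene ADAR (12.52) as its nearest measured neighbours.

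Leaving out neighbours that are receptor genes themselves, the nearest measured protein-coding genes beside receptor genes were above background in 92 of 144 cases (63.9%), against 58.5% of 28904 cases over all genes. Beside the receptor genes above background it was 9 of 10 cases and beside those not above 83 of 134 (61.9%). Over all genes these shares were 63.7% beside genes above background and 51.3% beside genes not above. The lone exception among the 10 was TYR (4.35), the pigment enzyme gene beside GRM5. Neighbours are not independent, and the 9 of 10 rest on 6 genes.

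**Figure D4:**
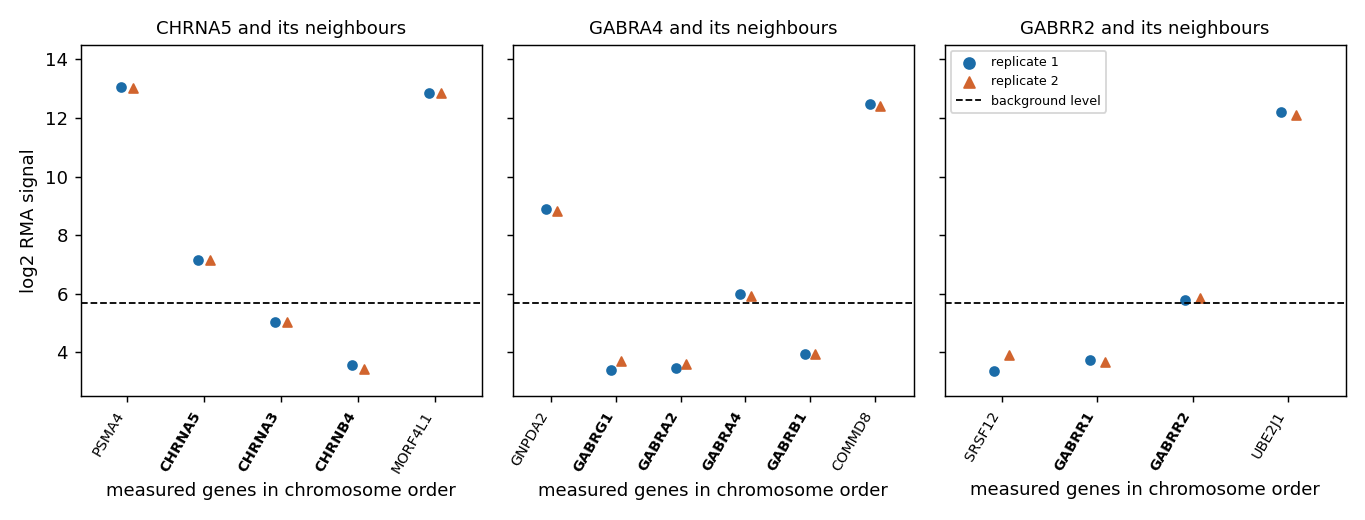
Log2 RMA signal (y axis) in replicate 1 (circles) and replicate 2 (triangles) of measured genes in chromosome order (x axis, not to scale) around CHRNA5, GABRA4 and GABRR2; receptor genes are in bold. In each panel 1 receptor gene lies above the background level (dashed), and flanking genes such as PSMA4 (13.04), COMMD8 (12.43) and UBE2J1 (12.15) lie far above it.

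The promoters of the genes above background were unlike in their CpG content, the feature that marks most promoters of widely expressed genes. They are shown for GABRA4, GABRR2 and CHRNB2 as the 250 bases before the RefSeq start of transcription (GRCh38.p14), in the 5′ to 3′ direction of the gene, with CpG dinucleotides in capitals. GABRA4 lies at chr4:46993582-46993831 on the minus strand, GABRR2 at chr6:89315300-89315549 on the minus strand and CHRNB2 at chr1:154567528-154567777 on the plus strand.
GABRA4: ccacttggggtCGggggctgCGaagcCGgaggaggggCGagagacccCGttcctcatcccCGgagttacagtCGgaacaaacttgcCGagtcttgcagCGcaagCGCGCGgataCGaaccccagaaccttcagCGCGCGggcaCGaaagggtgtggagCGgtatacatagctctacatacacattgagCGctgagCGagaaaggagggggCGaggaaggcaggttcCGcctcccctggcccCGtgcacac
GABRR2: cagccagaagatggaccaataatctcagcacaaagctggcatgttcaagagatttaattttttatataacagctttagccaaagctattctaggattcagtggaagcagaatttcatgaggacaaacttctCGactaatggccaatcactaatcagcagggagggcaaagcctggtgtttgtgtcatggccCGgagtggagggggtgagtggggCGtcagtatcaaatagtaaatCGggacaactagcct
CHRNB2: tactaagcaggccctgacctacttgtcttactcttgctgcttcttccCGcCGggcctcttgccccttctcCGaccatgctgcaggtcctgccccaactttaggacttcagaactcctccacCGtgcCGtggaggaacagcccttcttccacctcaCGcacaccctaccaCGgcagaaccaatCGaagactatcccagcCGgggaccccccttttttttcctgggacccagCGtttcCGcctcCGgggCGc
GABRA4 and GABRR2 are shown as the highest and lowest of the 6 in the table, and CHRNB2 as one between. GABRA4 has 23 CpG dinucleotides in this window, GABRR2 has 4 and CHRNB2 has 13. Those not shown have 15 (GRM5), 10 (CHRNB1) and 6 (GRIK5). Over all protein-coding genes with a promoter in the table the median was 21 for genes above background (7205 genes) and 11 for genes not above it (4691 genes). GABRA4 thus lay over both medians and GABRR2 under both. A comparison over the whole set of receptor genes was void, because the table matched 66 of the 85 protein-coding ones (77.6%), under the 80% that was required.

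REST was above background with 9.22 and 9.11 by 1 of 3 probe sets. By their brightest probe sets all 12 measured genes of the list of REST and its partners were above background, against 52.1% of all genes. Among them were RCOR1 (7.94 ± 0.19), the CoREST scaffold, HDAC1 (12.28 ± 0.03) and HDAC2 (11.04 ± 0.05). The demethylase KDM1A (10.04, SD under 0.01), HMG20B (8.93 ± 0.05) and the corepressor RCOR3 (7.85) were others. Whether REST acts on the receptor genes in this line was not tested. The core of the RE1 element was searched on both strands of the same 250-base windows, as AGCACC and GGACAG with any 2 bases between them. It was found in the promoter of HTR5A, a serotonin receptor gene with signals of 3.78 and 3.83. It was found in 9 of all 11896 promoters (0.0757%), of which 0 belonged to a gene above background. Of the 11896 promoters 7205 belonged to such genes, and 9 matches are too few for a comparison. Only these exact letters in these windows were searched, so other forms of the element and sites elsewhere were missed. The receptor promoters missing from the table were not searched, so no share over the receptor genes is compared. The HTR5A promoter (chr7:155070074-155070323, plus strand) is shown because it holds 3 matches, given in capitals, which begin 241, 191 and 126 bases before the start of transcription.
HTR5A: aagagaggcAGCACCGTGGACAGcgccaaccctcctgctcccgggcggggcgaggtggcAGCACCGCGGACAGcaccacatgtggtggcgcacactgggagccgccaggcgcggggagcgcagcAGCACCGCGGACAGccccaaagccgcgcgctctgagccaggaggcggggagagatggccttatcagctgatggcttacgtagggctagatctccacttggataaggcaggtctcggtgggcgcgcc
A match of these letters is a description, and binding was not measured.

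Lists of genes that act with the receptors, which hold many widely used cell components, had between 20% and 61.1% of their measured genes above background, beside 7.78% of the receptor genes and 52.1% of all genes; the differences were not tested. The share of 3 of these 4 lists lay below that of all genes. Of 36 measured genes of G-protein coupling and desensitisation 22 were above background (61.1%), including GNAS, the Gs alpha subunit (13.46, SD under 0.01), GNA13 (12.55), GNB1 (11.65), GNAI3 (11.57) and GNAI2 (10.82). GNAL (4.10 ± 0.29), the Gs-like subunit of olfactory neurons, and GNAI1 (3.37 ± 0.17) were not. Of 37 genes of receptor anchoring and trafficking 12 were above background (32.4%). The brightest were GABARAPL2 (11.80) and GABARAP (11.66), which also serve autophagy, the fusion ATPase NSF (10.14, by 1 of 3 probe sets), the kainate receptor auxiliary subunit NETO2 (9.89) and the scaffold DLG1 (9.87). GPHN, gephyrin, which anchors glycine and GABA-A receptors and also makes the molybdenum cofactor, gave 9.69 and 9.70.

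Of 22 genes of transmitter synthesis and breakdown 8 were above background (36.4%), and of 25 genes of transmitter transport 5 (20%). The genes of synthesis and breakdown were led by the general metabolic enzymes SHMT2 (11.85), GLUD1 (11.24), GLDC (10.54), GLUL (10.12) and ALDH5A1 (8.81). GAD1, which makes GABA, was just above the level by 1 of 3 probe sets (5.87 and 5.86), whereas CHAT (4.09), TH (3.89) and TPH1 (3.61), which define cholinergic, catecholamine and serotonin cells, were not. The transporters above background were the amino acid carriers SLC38A2 (11.88), SLC38A1 (11.52), SLC1A4 (10.14), SLC1A1 (9.07) and SLC1A5 (8.75). The serotonin transporter SLC6A4 exceeded the level in replicate 2 alone (5.58 and 5.87).

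Neuron markers were above background in 3 of 19 measured cases, TUBB3 (11.03), UCHL1 (10.29) and ENO2 (8.52), and glia markers in 1 of 9, MBP (10.33). The share over all genes was 52.1%. The neuron markers under the level on both arrays included SNAP25 (4.84), SYP (4.61), SYN1 (5.38), MAP2 (3.98) and NEFL (4.19), named after their values were seen.

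**Figure D5:**
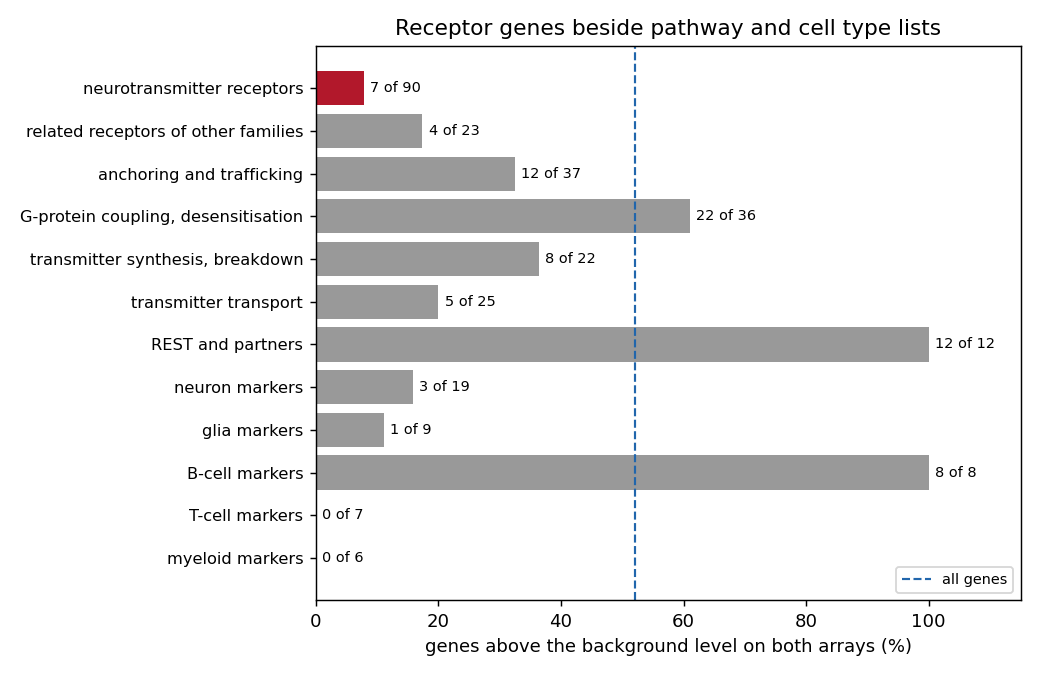
Share of genes above the background level on both arrays (x axis, %), for the receptor genes (red) and for lists of genes of the same pathways and of cell types (grey), each with its count of measured genes; the dashed line is the share over all genes, 52.1%. The receptor genes, with 7 of 90, have a shorter bar than the other pathway lists and than the neuron and glia markers, the T-cell (0 of 7) and myeloid markers (0 of 6) have none, and REST with its partners (12 of 12) and the B-cell markers (8 of 8) have the longest.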

How the data were processed

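RNA of 2 samples of 1 lymphoblastoid line was measured on Affymetrix U133 Plus 2.0 arrays. The authors deposited 1 intensity per probe set and array, made with RMA per the submitters' processing notes (sources used here give no version). This method corrects background, normalizes quantiles between arrays and summarises probes, so a change in total messenger RNA per cell is not seen. The intensities ran from 6.29 to 33093, so on a linear scale, and were log2-transformed. Of 36289 probe sets 29493 had 1 gene symbol in the platform annotation, 1407 several and 5389 none; 29461 were matched by Entrez ID to a RefSeq gene table (GRCh38.p14), and only those with 1 symbol named a gene. The files name no genome build.

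Calls used the 95th percentile of 84 of 97 listed tissue-restricted genes that were measured. The number of arrays limits the precision. Members, gene lists and settings were chosen with earlier results of these data known. Named were receptor genes above the level on at least 1 array or within 0.25 of it, the dimmest and brightest of each family, up to 5 of the brightest genes above the level in other lists and the first 3 of the REST and G-protein lists; further genes, such as subunit partners, were chosen after their values were seen. The calling steps were run on simulated data with genes set far above background and no bright gene in the reference set. That run does not bear on calls close to the level. Python 3.11.15, numpy 2.4.6, pandas 2.3.3 and statsmodels 0.14.6 were used. Other levels, normalizations, probe set choices and single arrays were tried.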

Additional observations from a re-analysis of the deposited data

How the results depend on the processing

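The 7 calls moved with the background chosen: a 75th percentile gave 19 genes and 19 probe sets (63.4% of all genes), and a 99th gave 0 and 0 (39.8% of all genes). The 99th percentile level was pulled up by the bright tissue-restricted gene KRT10. With a level from olfactory receptor genes 9 receptor genes were called, with GRIA3 and HTR4 added (56.6% of all genes). With 83 genes left after _x_at and _s_at probe sets were dropped, 5 were called (46.7% of all genes left). The mean over a gene's probe sets also gave 5 (50.1% of all genes). GRIK5 and GRM5 were lost in both settings. Of 12 settings, CHRNA5, CHRNB1, CHRNB2, GABRA4 and GABRR2 were above the level in 11 each (all but the 99th percentile), GRIK5 and GRM5 in 9 and HTR4 in 3. Several settings could not undo a call made on both arrays: a lower percentile, centring on the median, leaving out dim genes and using a single array. The level from olfactory receptor genes, 5.12 and 5.15, was lower than the main one and could only add calls. A second quantile normalization and the subtraction of a low percentile keep the order of signals within an array, so they could hardly change a call. These tallies are therefore no measure of how firm a call is. Leaving out each array gave 7 to 8 genes (52.8% to 53.0% of all genes), 7 to 8 probe sets and a median signal of 3.98 to 4.05. It also gave 63 to 65 of 155 associated genes, those of the pathway lists, the REST list and the related receptors below. The median signal was 5.92 with dim genes left out (10 genes), 4.56 after a low percentile was subtracted, 3.97 with the mean over probe sets and 3.96 without _x_at and _s_at probe sets. No paired analysis was possible because there is 1 group. Signals near the level are limited by the brightness over background that 2 arrays can resolve.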

Other observations

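Receptors for transmitters and mediators outside the families above were above background in 4 of 23 measured genes (17.4%), against 52.1% of all genes. P2RY10, a lysophospholipid receptor of lymphocytes, gave 10.62 and 10.78. P2RX5 and P2RX4, ion channels opened by ATP, gave 10.17 and 10.08, and 8.41 and 8.28. HRH3, a histamine receptor known from neurons, gave 6.02 and 5.99 by 1 of 4 probe sets. GABBR1 (5.08 ± 0.20) and GABBR2 (4.34 ± 0.03), which together form the metabotropic GABA receptor, lay under the level, as did the ATP receptor P2RX7 (4.98 ± 0.09) and the adenosine receptors ADORA1, ADORA2B and ADORA3 (4.17 to 4.50).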
